A study of Arabidopsis thaliana with 6 samples.

Results

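Plant cells enlarge only as far as their walls yield. Expansins loosen the wall without cutting its polymers, and xyloglucan endotransglucosylase/hydrolases (XTH) cut and rejoin xyloglucan, the hemicellulose that lies between cellulose microfibrils. The wall glycans themselves are made in part by the cellulose synthase-like (CSL) enzymes and by the galacturonosyltransferases of pectin synthesis (GAUT). The transcripts of 35 such genes were compared between seedlings of the Arabidopsis thaliana mutant esd7-1 and its parental accession Landsberg erecta (Ler), the wild type. They were taken by symbol: EXPA, EXPB, EXLA, EXLB, XTH, CSLA to CSLG, CESA, GAUT, GATL, FLA or AGP followed by a number, on a probe set annotated to exactly 1 gene. They are 35 of the 13350 genes named in this way on the arrays, and each had 1 such probe set. No CESA, GATL, FLA or AGP gene is among them, and 2 probe sets that list several genes with such a symbol were not used.

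Both genotypes were sampled as 14-day-old seedlings grown in short days and collected 8 h after dawn, without further treatment. The mutant esd7-1 carries a lesion in ESD7, which is known to encode the large subunit of the leading-strand polymerase, DNA polymerase epsilon, and flowers early. Each genotype had 3 Affymetrix arrays, each hybridized with RNA from its own pool of plants, so a value is an average over whole seedlings. No named probe set stood for ESD7, whose level was not analysed here as a check of the labels. In such RNA, fewer cells of a type and less RNA per cell cannot be told apart. Levels are log2 values after robust multi-array averaging (RMA), and differences are given as esd7-1 minus Ler on that scale. The green shoot marker RCA, the activase of Rubisco, read between 13.37 and 13.76, and the root marker PYK10, a beta-glucosidase, between 10.42 and 11.98. Of the 20 root hair and 18 seed markers listed, none had a named probe set.

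The 35 genes are 18 expansins (10 EXPA, 4 EXPB, 3 EXLA and 1 EXLB), 9 XTH genes, 7 CSL genes (2 CSLA, 4 CSLC and 1 CSLD) and GAUT15. The RefSeq gene table holds 24 EXPA, 6 EXPB, 30 XTH, 13 GAUT, 7 CSLA and 6 CSLD symbols, so these families were covered in part. Its 5 CSLB, 1 CSLE and 3 CSLG genes were not covered. All 3 EXLA genes, the EXLB gene and all 4 CSLC genes with such symbols were covered. The mean level of 14 of the 35 lay below the 40th percentile of all probe sets, where RMA compresses differences. These 14 include 7 expansins, 5 XTH genes and 2 CSL genes.

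None of the 35 genes passed the limma test between genotypes, with Benjamini-Hochberg adjustment over all 22746 plant probe sets and a threshold of 0.05. Their adjusted p lay between 0.733 and 0.994, and 0% of all probe sets passed. At an unadjusted limma p under 0.05 there were 4 of 35 genes, or 11.4%, against 5.78% of all probe sets. EXPA4 and EXLB1 read higher in esd7-1, where 2.29% of all probe sets did at this p, and XTH33 and EXLA2 read lower, where 3.49% did. With array weights in the fit 10 of 35 had such a p, against 18.8% of all probe sets, and without esd7-1 replicate 2 it was 9 of 35, against 10.2%. With the replicate number as a block it was 5 of 35, against 5.02%. The 3 esd7-1 values lay all above or all below the 3 Ler values for 5 of 35 genes, or 14.3%, against 11.3% of all probe sets. Of these, 2 were higher in esd7-1 and 3 lower, where 5.64% and 5.69% of all probe sets were. XTH16 was the fifth gene. No difference reached 2-fold, and 21 of the 35 were within 0.2 of no difference. The median difference of the 35 was 0.08, beside 0.01 for all probe sets. That median was -0.03 without esd7-1 replicate 3, 0.17 without esd7-1 replicate 2, and -0.005 without both esd7-1 replicate 3 and Ler replicate 2. It was -0.04 over the 21 genes above the 40th percentile of level, of which 10 were higher and 11 lower. The median of all probe sets above that level was -0.07.

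**Figure D1:**
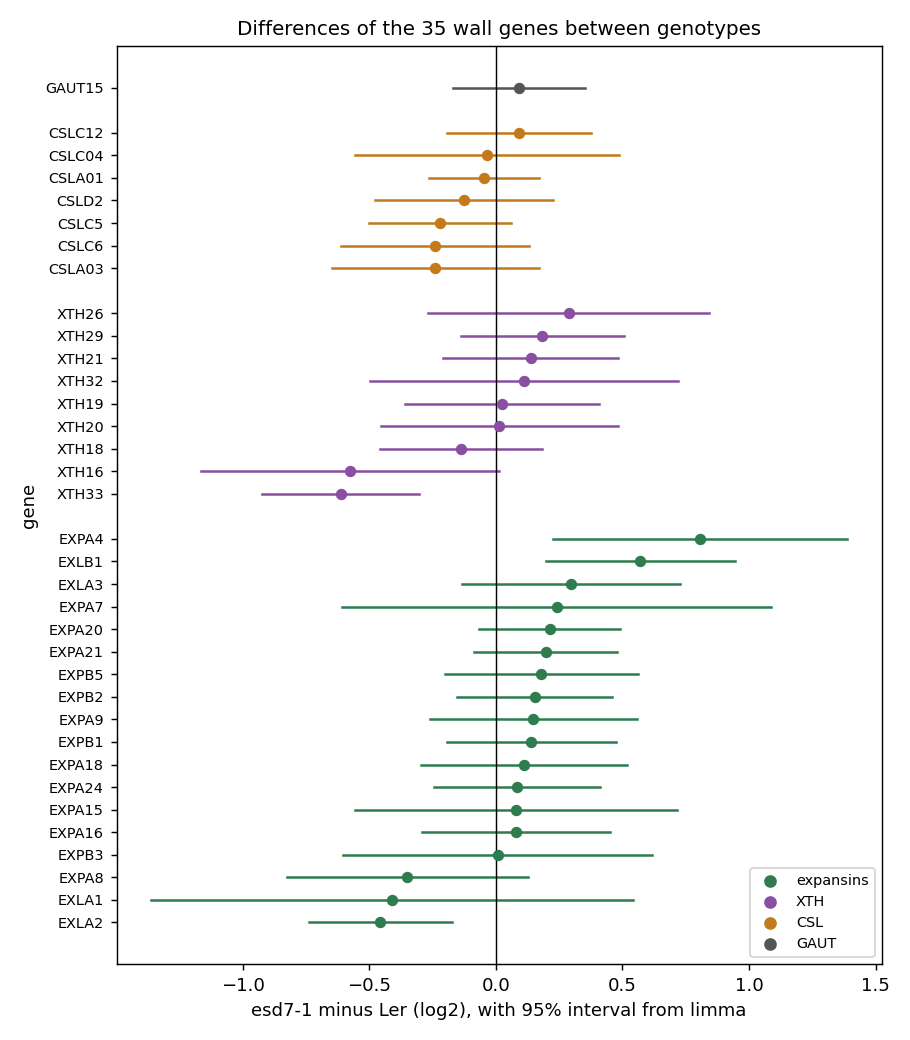
Difference in level between esd7-1 and Ler (log2, horizontal axis) for each of the 35 genes, ordered within families; points are limma estimates from 3 arrays per genotype and bars are 95% intervals, not adjusted for the number of genes. The intervals of EXPA4, EXLB1, EXLA2 and XTH33 leave out 0, and the estimates run from -0.61 for XTH33 to 0.81 for EXPA4.

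Among the alpha-expansins, the classical wall-loosening proteins, EXPA4 (AT2G39700) differed most between genotypes. EXPA4 read 7.01, 6.54 and 7.35 in esd7-1 and 6.09, 6.49 and 5.90 in Ler. All 3 mutant values lay above those of Ler, though the lowest mutant value, 6.54, was close to the highest Ler value, 6.49. The means were 6.97 ± 0.41 and 6.16 ± 0.30 (SD, n = 3). The difference was 0.81 (SE 0.24), its 95% interval ran from 0.23 to 1.39, and its limma-adjusted p was 0.806. EXPA8 (AT2G40610) differed in the other direction. It read 8.97, 8.89 and 9.60 in esd7-1 and 9.50, 9.60 and 9.41 in Ler. The groups overlapped through esd7-1 replicate 3 alone, which equalled the highest Ler value, and the difference was -0.35 (limma-adjusted p 0.846). Without esd7-1 replicate 3 the EXPA8 difference was -0.57, and it did not pass.

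The other 8 EXPA genes had small differences, all with a higher mean in esd7-1. EXPA20 (AT4G38210) read 4.63, 4.90 and 4.93 in esd7-1 and 4.60, 4.67 and 4.55 in Ler, and differed by 0.21. EXPA21 (AT5G39260) read 3.87, 3.77 and 3.76 in esd7-1 and 3.80, 3.49 and 3.52 in Ler, and differed by 0.20. In both genes 1 Ler array reached into the mutant range. EXPA24 lies near EXPA21 in the gene table, with 4 protein-coding genes between them, and differed by 0.08. EXPA7 and EXPA18, the expansins known from root hairs, differed by 0.24 and 0.11. EXPA9, EXPA15 and EXPA16 differed by 0.15, 0.08 and 0.08. In all, 9 of 10 EXPA genes had a higher mean in esd7-1, with a median of 0.13, where 51.3% of all probe sets did. Without esd7-1 replicate 3 this was 5 of 10, with a median of -0.005, and without both esd7-1 replicate 3 and Ler replicate 2 it was 7 of 10, with a median of 0.08. Over all 18 expansins, 15 had a higher mean in esd7-1, with a median of 0.14. Without esd7-1 replicate 3 it was 11 of 18, with a median of 0.045. The share of all probe sets with a higher mean depended on level. Above the 40th percentile it was 4970 of 13650, with a median of -0.07. There 4 of 5 EXPA genes and 8 of 11 expansins had a higher mean, each set with a median of 0.11.

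The beta-expansins, the family that includes the grass pollen expansins, overlapped between genotypes in all 4 genes measured. EXPB1, EXPB2, EXPB3 and EXPB5 differed by 0.14, 0.15, 0.01 and 0.18, and none of their intervals left out 0. EXPB3 (AT4G28250) read 7.83, 7.21 and 8.09 in esd7-1 and 7.71, 7.99 and 7.41 in Ler. Its spread within each genotype, at SDs of 0.45 and 0.29, was far larger than the difference between them. The 95% interval of that difference ran from -0.61 to 0.62.

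The expansin-like genes, whose products resemble expansins but are not known to loosen walls, held both directions. EXLB1 (AT4G17030) read 5.92, 5.50 and 5.68 in esd7-1 and 5.32, 5.15 and 4.92 in Ler, with no overlap. EXLB1 thus differed by 0.57 (SE 0.16), and its limma-adjusted p was 0.806. EXLA2 (AT4G38400) read 4.28, 4.30 and 4.38 in esd7-1 and 4.63, 4.97 and 4.73 in Ler. The mutant values were tightly grouped below all Ler values, at 4.32 ± 0.05 and 4.78 ± 0.17 (SD, n = 3). The difference of EXLA2 was -0.46 (SE 0.12), also at a limma-adjusted p of 0.806.

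EXLA1 and EXLA3 are direct neighbours in the gene table, with 0 protein-coding genes between them, and their values did not run together. EXLA3 (AT3G45960) read 4.42, 3.76 and 4.03 in esd7-1 and 3.78, 3.65 and 3.89 in Ler. Its difference of 0.30 came mostly from esd7-1 replicate 1, and was 0.12 without that array. EXLA1 (AT3G45970) read 7.79, 8.21 and 6.57 in esd7-1 and 7.81, 7.88 and 8.11 in Ler. Here esd7-1 replicate 3 alone lay below the other 5 arrays, which overlapped fully. The difference of EXLA1 was -0.41 (SE 0.40) on all arrays, and 0.07 without that array.

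**Figure D2:**
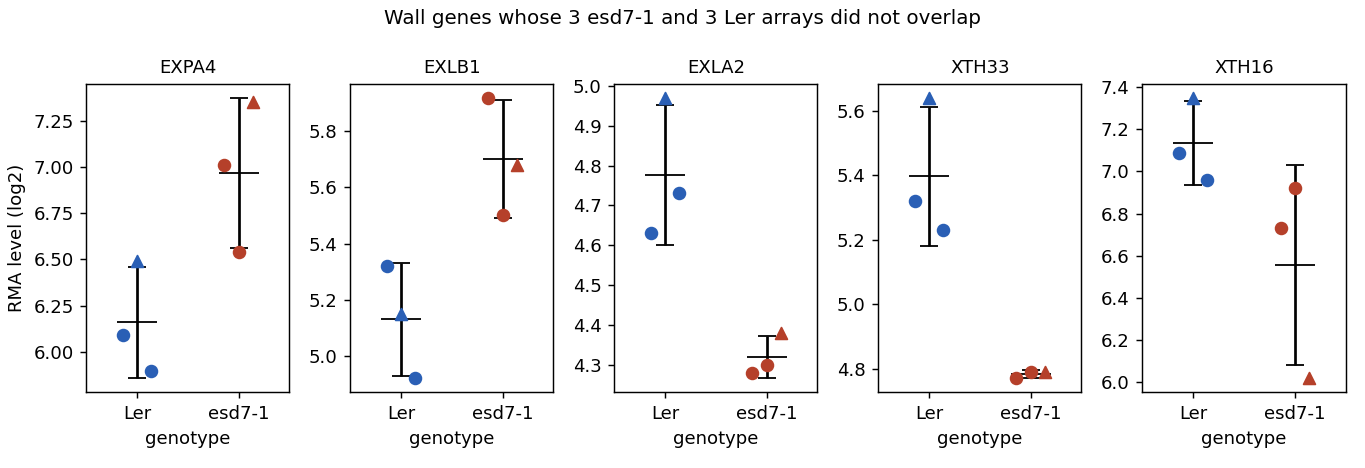
Level (log2, vertical axis, a separate scale in each panel) of the 5 genes whose esd7-1 and Ler values did not overlap; each symbol is 1 array, triangles mark esd7-1 replicate 3 and Ler replicate 2, and bars show the mean and SD of 3 arrays. EXPA4 and EXLB1 were higher on every esd7-1 array, and EXLA2, XTH33 and XTH16 lower.

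Of the 9 XTH genes, 2 read lower on every esd7-1 array than on any Ler array, as did 5.69% of all probe sets. XTH33 (AT1G10550), an XTH known to be anchored in the plasma membrane, had the smallest p of all 35 genes. It read 4.77, 4.79 and 4.79 in esd7-1 and 5.32, 5.64 and 5.23 in Ler. The 3 mutant values were nearly equal and lay well below the lowest Ler value. The means were 4.78 ± 0.01 and 5.40 ± 0.22 (SD, n = 3), a difference of -0.61 (SE 0.13). Its 95% interval ran from -0.92 to -0.30, its unadjusted limma p was 0.00242 and its adjusted p was 0.733. XTH16 (AT3G23730) read 6.73, 6.92 and 6.02 in esd7-1 and 7.09, 7.35 and 6.96 in Ler. The gap between the groups was narrow, from 6.92 to 6.96, and esd7-1 replicate 3 lay far below the other mutant arrays. XTH16 differed by -0.58 (SE 0.25) at a limma-adjusted p of 0.846, and by -0.31 without that array.

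The remaining XTH genes overlapped between genotypes. XTH18 and XTH19, direct neighbours in the gene table with 0 protein-coding genes between them and known from roots, differed by -0.14 and 0.02. XTH20 and XTH21, also known from roots, differed by 0.01 and 0.14, and XTH29 by 0.18. XTH26 (AT4G28850) read 4.08, 3.69 and 4.59 in esd7-1 and 3.94, 3.92 and 3.64 in Ler, a difference of 0.29. That difference was 0.05 without esd7-1 replicate 3. XTH32 (AT2G36870), of the XTH group that includes xyloglucan hydrolases, read 9.66, 9.40 and 10.38 in esd7-1 and 9.72, 9.86 and 9.53 in Ler. Its difference of 0.11 was smaller than its SE of 0.25. The median over the 9 XTH genes was 0.02, but -0.05 after the arrays were quantile-normalized once more. It was -0.16 without esd7-1 replicate 3, 0.17 without esd7-1 replicate 2, and -0.095 without both esd7-1 replicate 3 and Ler replicate 2.

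The genes of enzymes that make hemicellulose backbones had small estimates, up to 0.24 in size among the 7 CSL genes. Larger differences are not excluded. The 95% interval ran from -0.649 to 0.169 for CSLA03 and from -0.558 to 0.485 for CSLC04. The CSLC enzymes are known as the glucan synthases of xyloglucan, the substrate of XTH. CSLC5 (AT4G31590) read 5.84, 6.03 and 5.71 in esd7-1 and 6.02, 6.17 and 6.05 in Ler, and CSLC6 (AT3G07330) read 5.95, 6.41 and 6.09 in esd7-1 and 6.22, 6.55 and 6.40 in Ler. In CSLC5 the groups met only at 6.03 and 6.02, whereas in CSLC6 they overlapped more widely. The differences were -0.22 (SE 0.12) and -0.24 (SE 0.15). CSLC04 (AT3G28180) read 7.51, 7.57 and 6.80 in esd7-1 and 7.33, 7.20 and 7.46 in Ler, and differed by -0.04. After a further quantile normalization its difference was 0.08. CSLC12 differed by 0.09 and lay at percentile 14 of mean level.

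CSLA enzymes are known to make mannan. CSLA03 (AT1G23480) read 6.47, 6.56 and 5.96 in esd7-1 and 6.51, 6.56 and 6.64 in Ler, a difference of -0.24. Without the low value of esd7-1 replicate 3 it was -0.06. CSLA01 differed by -0.05, and CSLD2, of a subfamily known for the growth of root hairs, by -0.13. In all, 6 of 7 CSL genes had a lower mean in esd7-1, with a median of -0.13 and no unadjusted p under 0.05 in limma. A lower mean was found for 48% of all probe sets, and for 63.1% of those above the 40th percentile of level, whose median was -0.07 and among which 5 of the 7 CSL genes lie. Without esd7-1 replicate 3 and Ler replicate 2 the median of the 7 CSL genes was -0.015, and without Ler replicate 1 it was -0.25. GAUT15 (AT3G58790), the 1 gene of its family measured here, read 4.84, 5.02 and 4.74 in esd7-1 and 4.80, 4.72 and 4.81 in Ler. The groups overlapped, and the difference was 0.09 (SE 0.11), with a range of 0.013 without esd7-1 replicate 2 to 0.153 without esd7-1 replicate 3.

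Arrays of the same genotype differed from each other more than the genotypes did for several of these genes. The bacterial poly-A control RNA averaged 6.18 on esd7-1 replicate 3 and 6.84 on Ler replicate 2, against 5.47 to 5.6 on the other 4 arrays. Of the 35 genes, 13 (37.1%) read highest in both genotypes on these 2 arrays, where 19.5% of all probe sets did. They read lowest in both for 3 of 35 (8.57%), where 20.2% of all probe sets did. The EXPA genes made up 8 of the 13. Of the 18 root markers listed, PYK10 alone was measured. PYK10 was higher by 1.325 on esd7-1 replicate 3 and by 1.305 on Ler replicate 2, each against the other arrays of its genotype. Of the 4 green shoot markers measured, RCA was higher by 0.25 and 0.095, LHCB4.1 by 0.21 and 0.375 and PSAN by 0.05 and 0.11 on the same arrays, while PSBW shifted by 0.11 and -0.09. The part of tissue makeup and of the labelling in these shifts was not tested.

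EXPA7 (AT1G12560), the root hair expansin, showed the largest upward shift among the 35 on these 2 arrays. It read 4.03, 3.67 and 5.0 in esd7-1 and 3.75, 4.38 and 3.85 in Ler, so the highest value of each genotype was on the array with high control RNA. EXPA7 averaged 0.865 higher there than on the other 4 arrays. EXPA15 (AT2G03090) read 6.89, 6.68 and 7.38 in esd7-1 and 6.87, 7.35 and 6.49 in Ler. The shifts of EXPA15 were 0.595 in esd7-1 and 0.67 in Ler, nearly equal in both genotypes, while the difference between genotypes was 0.08. EXPA4, EXPB3 and XTH32 averaged 0.535, 0.50 and 0.54 higher on these arrays.

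The largest downward shifts came mainly from 1 array. EXLA1 was lower by 1.43 on esd7-1 replicate 3, but only by 0.08 on Ler replicate 2. CSLA03 likewise had shifts of -0.555 and -0.015, and CSLC04 of -0.74 and -0.195. XTH16 had opposite shifts, of -0.805 in esd7-1 and 0.325 in Ler.

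**Figure D3:**
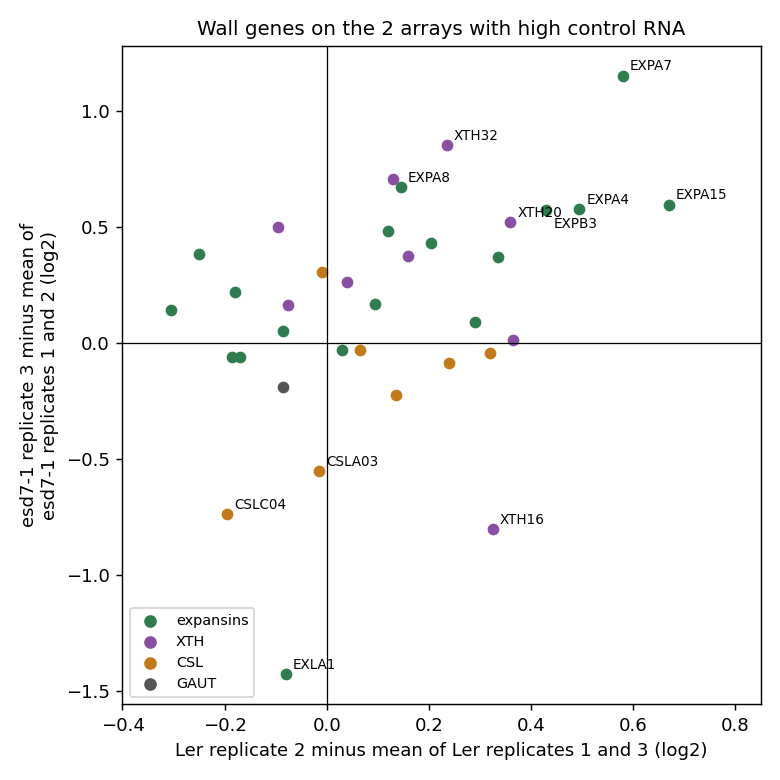
Shift (log2) of each of the 35 genes on Ler replicate 2 against the other Ler arrays (horizontal axis) and on esd7-1 replicate 3 against the other esd7-1 arrays (vertical axis), coloured by family. EXPA7, EXPA15, EXPA4 and EXPB3 lie at upper right, above 0 in both genotypes, while EXLA1 and CSLC04 lie low because of esd7-1 replicate 3.

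**Figure D4:**
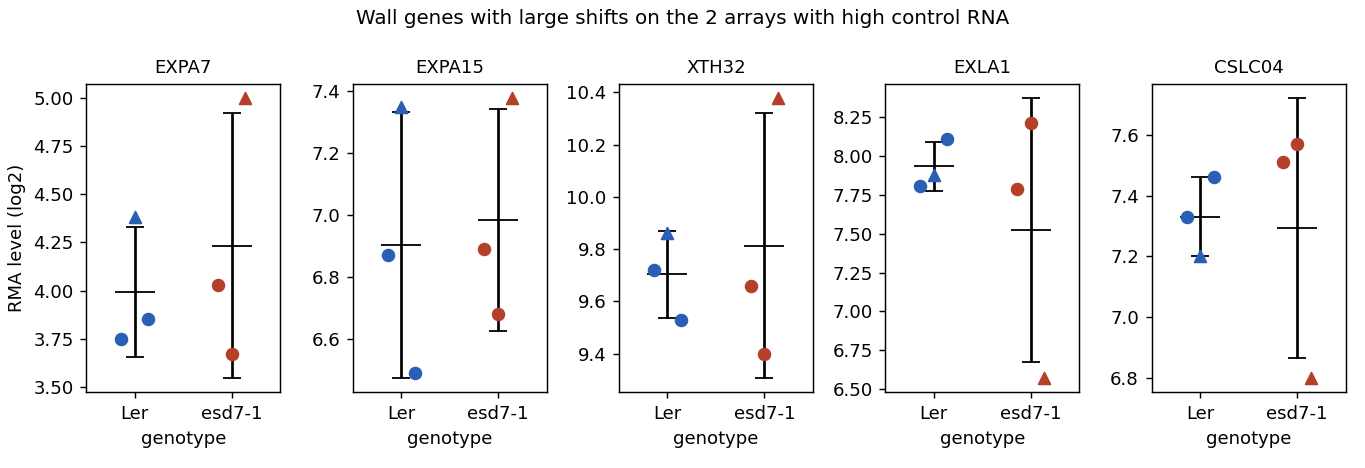
Level (log2, vertical axis, a separate scale in each panel) of 5 genes with large shifts on esd7-1 replicate 3 and Ler replicate 2, which are marked by triangles; symbols are arrays and bars show the mean and SD of 3 arrays. EXPA7 and EXPA15 have their highest value on the triangle in both genotypes, and EXLA1 has 1 low value, 6.57, on esd7-1 replicate 3.

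The differences between genotypes were also read within these sets of arrays. EXPA4 differed by 0.86 between the 2 arrays with high control RNA and by 0.78 among the other 4, and EXLB1 by 0.53 and 0.59. XTH33 differed by -0.85 and -0.495, and EXLA2 by -0.59 and -0.39. For groups that do not overlap, the sign of these values is fixed beforehand and only their size is a reading. XTH16 differed by -1.33 and -0.20, so its difference was mostly that between the 2 arrays. EXPA8 differed by 0.00 and -0.525. With a term for the 2 arrays in limma, the lowest adjusted p among the 35 was 0.151, for EXPA4, followed by 0.162 for XTH33, and none passed. With array weights in limma the adjusted p was 0.084 for EXPA4, 0.0882 for XTH33 and 0.0978 for EXLB1, and none passed either. The weights were 3.71, 0.63 and 0.25 for esd7-1 replicates 1 to 3, and 1.41, 0.55 and 2.19 for Ler replicates 1 to 3. The mutant mean in the weighted fit thus rested mostly on esd7-1 replicate 1. With the term, 6 of the 35 had an unadjusted limma p under 0.05, against 11.1% of all probe sets. With array weights it was 10 of the 35, against 18.8%.

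A second pair of arrays was low together. On esd7-1 replicate 2 and Ler replicate 3, 13 of the 35 genes (37.1%) read lowest in both genotypes, where 15.3% of all probe sets did. These 13 comprised 8 expansins, including EXPA4, EXPA15, EXPB3 and EXLB1, and 5 XTH genes. Across all probe sets the deviations of these 2 arrays from their genotype means correlated at 0.63, those of the 2 arrays with high poly-A control at 0.59, and those of the 2 first replicates at 0.54. Within a genotype the deviations of a gene cancel out, so these pairs of arrays depend on each other and are not separate readings. The first replicates also had a high 25S rRNA control, at 8.99 and 9.66 against 4.69 to 5.77 on the other 4 arrays, and its part in the values was not tested. No label ties the arrays to each other.

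Other genes of wall synthesis, wall sensing and growth were read from lists by symbol. Of 216 such genes 21 had a named probe set, and none passed in limma. At an unadjusted p under 0.05 there were 3 of 21, where 5.78% of all probe sets had such a p and 11.3% had groups that did not overlap. EXO (EXORDIUM, AT4G08950), a wall protein that promotes growth downstream of brassinosteroids, read 8.03, 8.08 and 8.08 in esd7-1 and 8.47, 8.28 and 8.40 in Ler. It was lower on all esd7-1 arrays, with a difference of -0.32 (SE 0.10) and a limma-adjusted p of 0.806. HCT (AT5G48930), an enzyme of lignin precursor synthesis, read 9.05, 9.09 and 9.19 in esd7-1 and 9.22, 9.68 and 9.45 in Ler. Its groups did not overlap either, and it differed by -0.34 (limma-adjusted p 0.846). The third gene was the gibberellin receptor GID1A, at -0.60. COB (COBRA), needed for oriented cellulose deposition, differed by 0.23 and the xylan gene IRX15 by 0.07. The pectin methylesterase gene ATPMEPCRB differed by 0.26 (SE 0.40), with groups that overlapped. Its difference was -0.26 between the 2 arrays with high control RNA and 0.52 among the other 4. The signal peptide gene RALFL33 differed by -0.32 (SE 0.19). No listed gene of xyloglucan side chains had a named probe set.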

How the data were processed

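The values the authors deposited are log2 expression summaries per probe set with 2 decimals. RMA and limma are named, without versions, per the submitters' processing notes. Further settings were not stated. RMA equalizes the arrays, which removes general shifts, and compresses low values. Of 22810 probe sets, 64 controls were left out. Names came from the platform annotation, updated to the RefSeq gene table (assembly TAIR10.1). It names 1 gene for 13513 probe sets, of which 13436 matched, several genes for 503, and none here for 8730. The table served for names and gene order, not coordinates. Genotypes were compared by limma 3.58.1 (R 4.3.3) with lmFit and eBayes and no covariate. Tests were two-sided, with Benjamini-Hochberg adjustment over 22746 probe sets and a threshold of 0.05. Each pool counted as 1 replicate, and the number of arrays limits the precision. Arrays stood apart where the mean of 27 bacterial poly-A control probe sets exceeded the median by over 0.5.

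The members, lists, alternatives and that split were chosen with earlier results of these data known. Full values are given for the 2 genes per family with the largest absolute difference, the 5 per direction with the smallest p, the 5 with the widest range over arrays and the 3 per direction with the largest shift on the arrays that stood apart. They are also given for EXPB3, XTH26, EXO and HCT, the first 2 chosen after their values were seen. Outside the 35 genes, the 1 with the largest absolute difference per list was named, and the green shoot and root markers measured. Equal replicate numbers gave no pairing. The deviations of such arrays from their genotype means correlated at 0.54 (number 1), -0.41 (number 2) and -0.60 (number 3). The blocks of numbers 2 and 3 thus joined arrays with opposed deviations. They could not take out the shifts that other pairs of arrays shared, which remain in the SEs of the fit without covariate.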

Additional observations from a re-analysis of the deposited data

How the results depend on the processing

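The count of members called stayed at 0 under every alternative run, that is array weights, the replicate block, a robust and trended variance prior, 2 scalings, the filter on dim probe sets, a term for or removal of the 2 arrays that stood apart, a threshold of 0.10 with no other change, and each array left out. With array weights 3 members had an adjusted p under 0.10. Over all probe sets it was 0 with all 6 arrays and with the replicate block, 33 with array weights, 4 with the term, 4 without both arrays, and 0 to 1 with 1 array left out (1 without esd7-1 replicate 3). The 4 members at an unadjusted p under 0.05 became 5 under the replicate block, 10 under array weights, and between 4 and 9 when single arrays were dropped (9 for esd7-1 replicate 2). For all probe sets that count was 1315, and it became 1141 under the replicate block, 4273 under array weights, 2527 under the term and 791 once dim probe sets were removed, as fewer were tested. Dropping single arrays gave 733 (Ler replicate 3) to 2320 (esd7-1 replicate 2). The median of XTH was -0.357 over the 4 members left without dim probe sets, where that of all probe sets left was -0.073. That of CSL was -0.015 without both arrays and -0.25 to -0.055 with 1 array left out. Of the 14 alternative fits, 10 change the estimates, and the sign of 22 of 35 members held in these 10. For EXPA4, EXLB1, EXLA2, XTH33 and XTH16, whose groups do not overlap, dropping arrays cannot turn it. The other 13 turned in at least 1 fit. No turned value passed, and the cause was not tested. With array weights these were CSLC04 at 0.098, XTH19 at -0.16 and EXPA16 at -0.056. With a second quantile normalization they were CSLC04 at 0.081, XTH19 at -0.046, XTH20 at -0.053 and EXPA24 at -0.003, and with median centring EXPB3 at -0.003. Without both arrays they were CSLC04 at 0.145, CSLC12 at -0.015, XTH19 at -0.175, XTH20 at -0.04, XTH32 at -0.095, EXLA1 at 0.04, EXPA16 at -0.04, EXPA24 at -0.065, EXPB3 at -0.04 and EXPB5 at -0.03. When single arrays were dropped, the following ranges crossed 0: CSLC04 -0.175 to 0.21, CSLC12 -0.012 to 0.148, EXLA1 -0.753 to 0.067, EXPA7 -0.143 to 0.522, EXPA15 -0.127 to 0.303, EXPA16 -0.08 to 0.18, EXPA18 -0.033 to 0.257, EXPA24 -0.018 to 0.182, EXPB3 -0.183 to 0.257, XTH19 -0.143 to 0.132, XTH20 -0.16 to 0.17 and XTH32 -0.173 to 0.317. Averaging a gene's probe sets was not run, since each member had 1. Low levels limit what can be seen in 14 of the 35 genes, where a small difference does not show that a transcript was detected and unchanged.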
